A study of Mus musculus with 36 samples.

Results

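Cytosolic ribosomal protein genes were followed in 36 microarrays of mouse inguinal fat, brown fat and liver. Members were all genes whose array annotation gives a symbol that starts with Rpl or Rps and a digit, leaving out the S6 kinases (Rps6k) and pseudogene symbols. The rule found 61 genes on 89 probes, out of 19057 named genes on 45281 probes; 52 are standard subunits and 9 are paralogs or genes only named after a subunit (Rpl3l, Rpl7l1, Rpl22l1, Rpl36al, Rpl39l, Rps4l, Rps27l, Rps19bp1 and Rps23rg1). Ribosomal proteins outside the symbol rule (Rplp0, Rplp1, Rplp2 and Rpsa) served only as a comparison list, and subunits with no probe under the rule were not analysed here. The labels describe male C57BL/6J mice, young (5 months) or old (24 months), on chow without restriction and held in dim red light for the last 5 days. Each tissue of each age has 1 array at each of 6 harvest times (0, 4, 8, 12, 16 and 20 h), so a group holds 6 arrays and every mouse group gave all 3 tissues. The labels attach 3 mice to each array without saying whether their RNA was pooled, and give the harvest interval as 4 h in the design text but 3 h in the protocol. The total of mice in the design text can be read per age or for both ages together, and the second reading would be too few for 3 mice of each age at each time. An array is therefore the replicate, and p-values measure the spread between arrays, not between mice. The design text names inguinal fat for dissection but eWAT in its RNA isolation step; the sample labels say inguinal fat, and that name is used here.

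Ribosomal proteins are assembled with ribosomal RNA in the nucleolus into the small (Rps) and large (Rpl) subunits of the cytosolic ribosome, where they are needed in matched amounts. In mammals their mRNAs usually begin with a cytosine followed by a run of pyrimidines, the terminal oligopyrimidine tract, through which growth signalling by mTORC1 controls their translation, so mRNA level and protein output can part. Mitochondrial ribosomal proteins (Mrpl, Mrps) belong to a separate ribosome that makes a few respiratory chain subunits.

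Start sites are shown because some strings and pyrimidine runs were more frequent around them in standard subunits than in all genes. Other regions of the genes were not compared. RefSeq start sites (GRCm38.p6) were listed for 51 of the 61 members, 43 of them standard subunits. The stretch from 30 bases before to 30 bases from the start is printed for Rpl12 and Rps16, which are among the 3 members that departed least from the common level, for Rpl35, which has a pyrimidine-rich start, and for Rpl3l, the member that departed most between tissues; capitals mark CTTTC on the gene's strand.
Rpl12 (chr2:32961682-32961741, plus strand): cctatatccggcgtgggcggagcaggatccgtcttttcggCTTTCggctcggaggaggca
Rps16 (chr7:28350659-28350718, plus strand): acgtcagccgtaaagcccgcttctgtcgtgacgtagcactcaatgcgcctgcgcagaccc
Rpl35 (chr2:39005102-39005161, minus strand): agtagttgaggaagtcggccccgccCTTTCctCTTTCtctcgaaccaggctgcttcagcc
Rpl3l (chr17:24727796-24727855, plus strand): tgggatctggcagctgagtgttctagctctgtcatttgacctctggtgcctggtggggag
From 20 bases before to 50 after the start, CTTTC stood on the gene's strand in 22 of 43 standard subunits (51.2%), in 11.6% of 69 mitochondrial ribosomal protein genes and in 10.4% of 27025 genes. A run of at least 8 pyrimidines in the same window was present in 79.1% of standard subunits and 28.5% of all genes. A cytosine followed by at least 4 pyrimidines exactly at the listed start was present in only 18.6% of standard subunits and 3.01% of all genes. Whether the listed starts are those used in these tissues was not tested. The string CCGGAAG, on either strand of the whole 300 bases, was present in 44.2% of standard subunits, 37.7% of mitochondrial ribosomal protein genes and 9.93% of all genes. These 4 are shown out of 22 searches, made with 12 strings (8 of them in 2 windows, some contained in others) and 2 run patterns; all 22 gave a higher share in standard subunits than in all genes, with ratios from 1.07 (CTTTT in the whole 300 bases) to 32 (CTCTTTCC near the start). The matches are descriptions of sequence.

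Values are quantile-normalized intensities on the log2(intensity + 16) scale, on which 4.00 is the floor, and each gene is read by its brightest probe. Of the 61 members, 52 were above background on all 36 arrays. Rpl14, Rpl6 and Rps20 were not above background on any array, and Rpl17, Rpl39l and Rps23 on 1 array each, so those 6 were tested in no tissue. Rps23rg1 was tested only where liver entered. The tests therefore covered 54 members in inguinal fat, 54 in brown fat and 55 in liver. Ribosomal protein genes have many processed copies in the genome and probe sequences were not used here, so a probe may read more than its named gene. Probes of a gene also disagreed: the brightest Rps19 probe averaged 14.35 in inguinal fat and 13.29 in brown fat, whereas the other read 8.18 and 8.90, the opposite order.

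Member levels differed between tissues. Inguinal fat had the highest levels of most subunits, and brown fat and liver lay lower and close to each other. The median of the 52 measured members ran from 13.22 to 13.87 on young and from 12.94 to 13.48 on old inguinal arrays. It ran from 12.45 to 12.83 over both ages of liver, and from 12.20 to 12.70 over brown fat apart from 1 array described below. No liver array reached the lowest inguinal one.

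**Figure D1:**
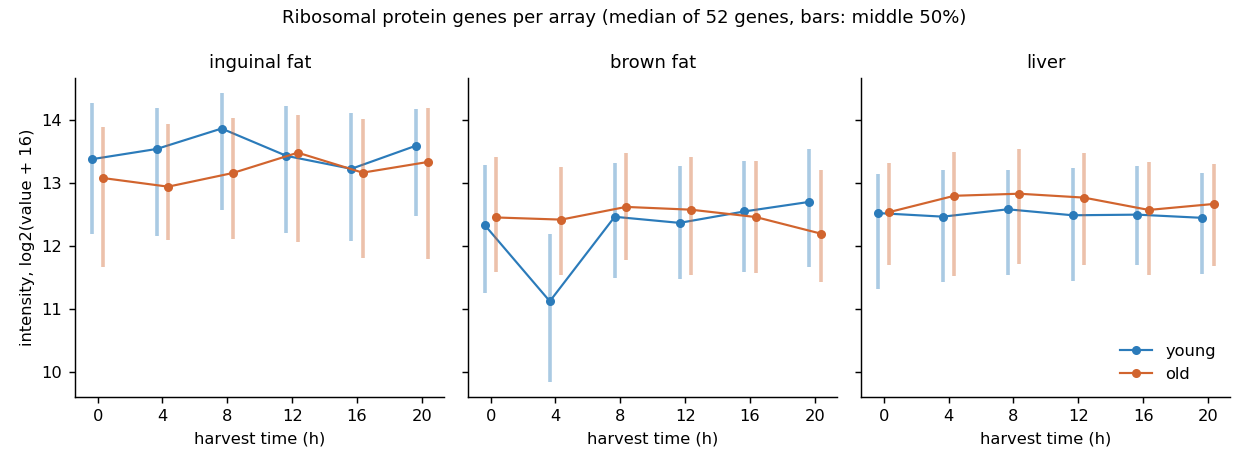
Median log2(intensity + 16) of the 52 measured ribosomal protein genes on each array (points, young in blue, old in orange) against harvest time, with bars over the middle 50% of the genes. Inguinal fat lies highest, and old inguinal fat starts below young but lies above it at 12 h. The old liver median lies above the young one at every time, and young brown fat at 4 h drops to 11.12.

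In brown fat against inguinal fat (12 differences matched by age and time, limma, Benjamini-Hochberg over 17070 genes), 44 of 54 members were lower and 6 higher, where 37.4% of all genes were called lower and 35.1% higher. The median member difference was -0.80, against 0.00 over all genes. Rpl12, a large-subunit protein near the stalk base where elongation factors act, ran from 13.40 through a median of 13.71 to 14.03 in young and from 13.06 through 13.29 to 13.63 in old inguinal fat. In brown fat Rpl12 ran from 10.69 through 12.17 to 12.56 in young and from 12.04 through 12.24 to 12.40 in old mice. The tissues did not overlap for Rpl12, and the difference was -1.41 ± 0.15 (SE, n = 12 matched differences, limma adjusted p = 7.13e-07). Rps26 (-1.33), Rps16 (-1.33) and Rpl34 (-1.21) followed, each lower in 12 of 12 matched differences. These values hold the low young brown fat array at 4 h described below, and their order depends on it. With 1 harvest time left out, Rps26 ran from -1.40 to -1.17, Rps16 from -1.41 to -1.20 and Rpl34 from -1.29 to -1.04. Rpl12 ran from -1.47 to -1.30, Rps4x from -1.21 to -1.12 and the member median from -0.85 to -0.69. The 4 members that were not called were Rpl23, Rpl24, Rps15a and Rps27l. For Rpl23 this holds for the brightest probe, which averaged 14.86 in inguinal and 14.69 in brown fat. A second bright Rpl23 probe averaged 14.33 and 13.58, a fall like that of most members.

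In liver against inguinal fat, 41 of 55 members were lower and 10 higher, where 42.2% and 37.6% of all 17520 genes were called lower and higher, with a median member difference of -0.63. Rps19, a small-subunit protein whose human gene is mutated in Diamond-Blackfan anaemia, had the second largest fall, -1.32 ± 0.11 (SE, n = 12, limma adjusted p = 2.05e-08), and Rps9 the next, -1.27 ± 0.10. Both were lower in liver in all 12 matched differences. With arrays centred on the brightest 10% of other genes, which put the median of all genes at 0.21, the split became 34 lower and 12 higher. The brown fat and liver comparisons share the inguinal arrays, so their likeness is not independent.

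Liver and brown fat differed less: 25 of 55 members were higher in liver and 6 lower, where 32.1% and 38.9% of all 17250 genes were, with a median of 0.20, which was 0.13 without the 4 h arrays. Rpl4, a large-subunit protein that reaches into the exit tunnel, was 0.91 ± 0.07 higher in liver (SE, n = 12, limma adjusted p = 1.24e-08), and Rpl13a, a large-subunit protein known in human cells for silencing translation after interferon-gamma, 0.71 ± 0.07 higher. With arrays centred on the brightest 10% of other genes, which put the median of all genes at 0.23 and that of the members at 0.47, the split became 42 higher and 2 lower.

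The other translation lists did not share 1 pattern. Mitochondrial ribosomal proteins went the opposite way: 69 of 73 were higher and 1 lower in brown than in inguinal fat (median 1.07), 66 were lower and 2 higher in liver than in brown fat (median -0.74), and in liver against inguinal fat 46 of 72 were higher and 11 lower. Of 13 other transcripts with a terminal oligopyrimidine start, 11 were lower in brown than in inguinal fat and 0 higher (median -0.47). Of 41 translation initiation factors, 12 were higher and 9 lower in that comparison (median 0.02), and of 10 elongation factors 2 were higher and 5 lower. The elongation factor list shares Eef1a1, Eef1b2, Eef1d, Eef1g, Eef2 and Tpt1 with the terminal oligopyrimidine list, so their counts are not independent.

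**Figure D2:**
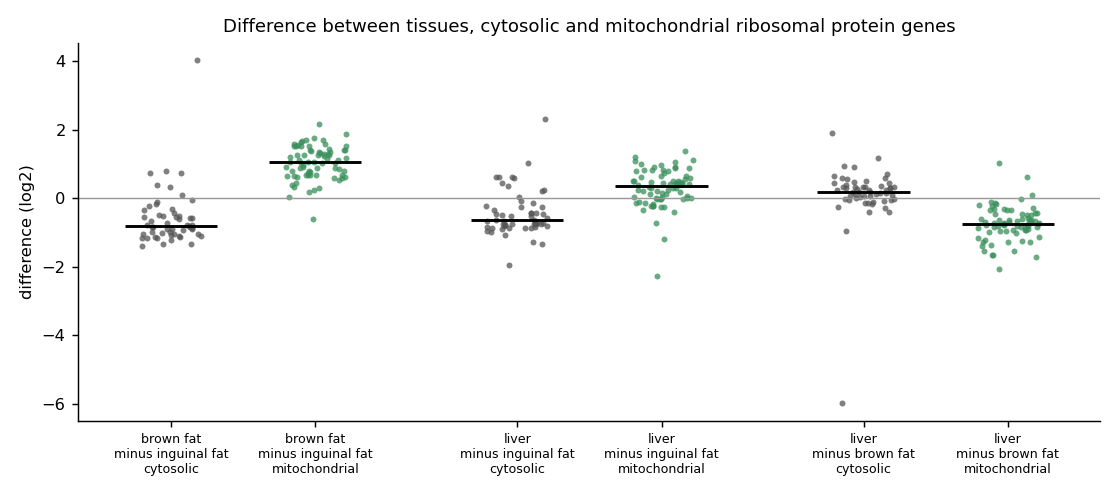
Difference between tissues (log2, mean of 12 matched differences) for each cytosolic (grey) and mitochondrial (green) ribosomal protein gene, with lines at the medians. Cytosolic genes lie mostly below 0 and mitochondrial genes above 0 in brown against inguinal fat, and Rpl3l stands apart at 4.04 and -5.99.

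Lymphocyte marker means were also higher on inguinal arrays than on most others. The mean of 7 B cell markers ran from 6.85 to 9.81 on inguinal arrays, against 4.60 to 5.33 on brown fat arrays other than young brown fat at 20 h (7.56) and 4.98 to 6.62 in liver. The mean of 11 T and NK cell markers ran from 7.34 to 9.38 in inguinal fat. In brown fat 6 of the 11 T and NK cell markers were above background on every array of each age, and 3 (young) and 4 (old) of the 7 B cell markers were. Cd8a was above background on no brown or inguinal fat array, and Cd4 on no brown fat array. The part of these cells in the member levels was not tested, and in whole tissue a change in cell numbers cannot be told apart from a change in RNA per cell.

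Several paralogs did not follow the tissue course of most subunits. Rpl36al was lower in brown fat (12.44) than in inguinal fat (12.85), as most subunits were, but was not lower in liver (13.08). Rpl3l, which in mouse replaces Rpl3 in heart and skeletal muscle ribosomes, averaged 12.37 in brown fat, 8.33 in inguinal fat and 6.38 in liver. The difference was 4.04 ± 0.67 between brown and inguinal fat (SE, n = 12, limma adjusted p = 6.04e-05) and -5.99 ± 0.44 between liver and brown fat (limma adjusted p = 2.42e-09). Rpl3, its parent, was 0.66 lower (-0.66) in brown than in inguinal fat. Rpl3l read 5.72, 5.81, 7.57, 7.58, 10.49 and 11.22 on the young inguinal arrays and 5.98, 6.53, 6.86, 7.10, 11.61 and 13.50 on the old, so that 4 arrays stood far above the other 8. Those 4 also had the highest mean of 14 skeletal muscle markers in inguinal fat, from 12.28 to 14.38, where the other 8 lay between 7.52 and 9.93. In liver Rpl3l read from 8.44 to 8.92 on 4 arrays, with muscle marker means of 9.40 to 9.67, and from 4.30 to 6.57 on the other 8, with means of 4.24 to 7.37. All 14 muscle markers were above background on every inguinal and brown fat array, and the part of muscle in the Rpl3l values was not tested.

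**Figure D3:**
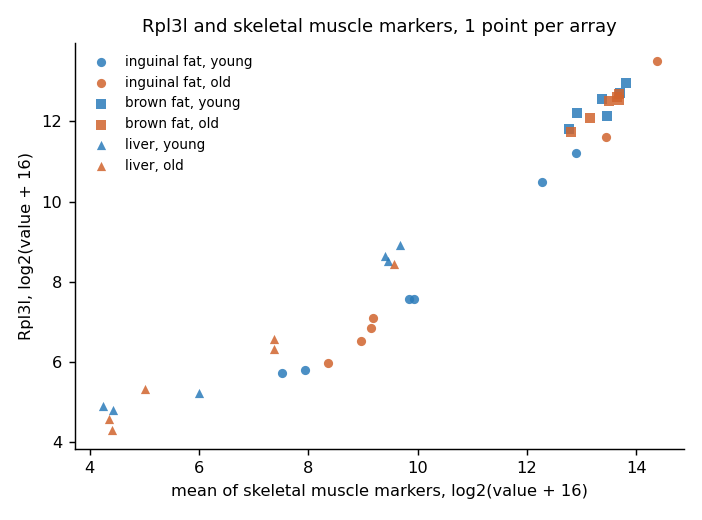
Rpl3l against the mean of 14 skeletal muscle markers, both as log2(intensity + 16), with 1 point per array (circles inguinal fat, squares brown fat, triangles liver; young blue, old orange). Brown fat arrays lie together near the top, and inguinal and liver arrays spread along the same course, with old inguinal fat at 4 h as the highest point.

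Rps27l, a paralog of Rps27 that p53 induces, was the paralog most raised in liver among those above background everywhere. It averaged 13.94 in liver, 13.01 in brown fat and 12.92 in inguinal fat, and was 1.03 ± 0.09 higher in liver than in inguinal fat in 12 of 12 matched differences (SE, limma adjusted p = 4.34e-08). Rpl22l1, the paralog that Rpl22 represses in mouse, was 1.18 ± 0.17 higher in liver than in brown fat (limma adjusted p = 8.78e-06) and 0.61 ± 0.15 higher than in inguinal fat. Rps4l was 0.81 ± 0.11 higher in brown than in inguinal fat, whereas Rps4x, the X-linked subunit gene, was 1.17 ± 0.09 lower. Rps23rg1, a gene derived from Rps23 by retroposition, averaged 6.38 in liver by its brightest probe. That probe was not above background on any inguinal array, a level at least 3.36-fold higher in liver (limma adjusted p = 3.91e-10). Its other probe averaged only 4.82 in liver, 4.85 in brown fat and 4.13 in inguinal fat, so the size of the liver excess rests on 1 probe.

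Age gave no call among the members in any tissue. In inguinal fat 0 of 54 members passed the threshold, where 4.1% of all genes did, although 24 had an unadjusted p under 0.05 (44.4%, against 23.9% of all genes). Old was below young in 48 of 54 members, with a median difference of -0.23 (all genes -0.01), and 17 members (31.5%) were lower at all 6 harvest times, against 10.7% of all genes. By harvest time the median difference ran from -0.45 at 8 h to -0.002 at 12 h, where 26 members were higher and 27 lower. Rpl32, a large-subunit protein, ran from 13.83 through 13.90 to 14.0 in young and from 13.40 through 13.57 to 13.63 in old mice. Its groups did not overlap, and the difference was -0.35 ± 0.09 (SE, n = 6 pairs, limma adjusted p = 0.0667). Rpl3, at the peptidyl transferase centre, was the other member without overlap (-0.31 ± 0.10, limma adjusted p = 0.1), where 3.28% of all genes had none. The lowest limma adjusted p was 0.0638, for Rps3a1 (-0.62 ± 0.15), which was lower at 5 of 6 times. The same arrays differed in lymphocyte markers: the B cell mean was 9.01 ± 0.50 in young and 7.76 ± 0.57 in old inguinal fat (SD, n = 6). Epithelium and gland markers moved the other way, with a mean of 5.66 ± 0.88 in young and 7.61 ± 1.01 in old (SD, n = 6), and 1 and 10 of 12 above background on every array. Among arrays, young inguinal fat at 8 h had the highest member median (13.87) and B cell mean (9.81). It also had the highest macrophage mean (10.72) and the lowest white and general adipocyte mean (11.83). Old at 4 h had the lowest member median (12.94) and B cell mean (6.85), with the highest muscle mean (14.38). Old at 12 h did not follow this order. Its member median (13.48) lay above those of young at 0, 12 and 16 h (13.38, 13.43 and 13.22). Its B cell mean (8.21) lay below all young ones (8.27 to 9.81). The part of these cells in the age difference was not tested.

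In liver the order was reversed, and again 0 of 55 members were called, where 4.17% of all genes were. Old was above young in 48 members, with a median of 0.17 (all genes -0.02). By harvest time the median difference ran from -0.02 at 16 h, where 26 members were higher and 29 lower, to 0.31 at 8 h. In all, 14 members (25.5%) were higher at all 6 times, against 7.89% of all genes, and 22 had an unadjusted p under 0.05 (40%, against 18.2%). Rps7, a small-subunit protein that can bind Mdm2, ran from 12.51 through 12.53 to 12.64 in young and from 12.81 through 12.85 to 12.95 in old liver. Its groups did not overlap, and it had the lowest limma adjusted p of the members (0.31 ± 0.08, SE, n = 6 pairs, adjusted p = 0.0729). Rpl10a, Rpl31 and Rpl39 did not overlap either, which makes 4 of 55 members (7.27%) against 3.85% of all genes. Rps4l went the other way, at -0.44 ± 0.15 (limma adjusted p = 0.148). Macrophage markers were also higher in old liver (8.84 ± 0.23 against 7.69 ± 0.13, SD, n = 6), as were the means of T and NK cell (6.12 ± 0.49 against 5.47 ± 0.20) and B cell markers (5.69 ± 0.49 against 5.15 ± 0.14), and their part was not tested. The other terminal oligopyrimidine transcripts had a median of 0.17 in liver and -0.19 in inguinal fat, with 0 of 13 called in either, whereas mitochondrial ribosomal proteins had -0.05 and 0.06.

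In brown fat 0 of 54 members were called, where 0.241% of all genes were, and 2 had an unadjusted p under 0.05 (3.7%, against 6.96% of all genes). Old was above young in 51 members with a median of 0.23, but the value rested on the young array at 4 h: without the 4 h pair the median was 0.03 and 32 of 54 members were higher. At 4 h itself the median difference was 1.40, and at the other times it ran from -0.23 to 0.19.

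**Figure D4:**
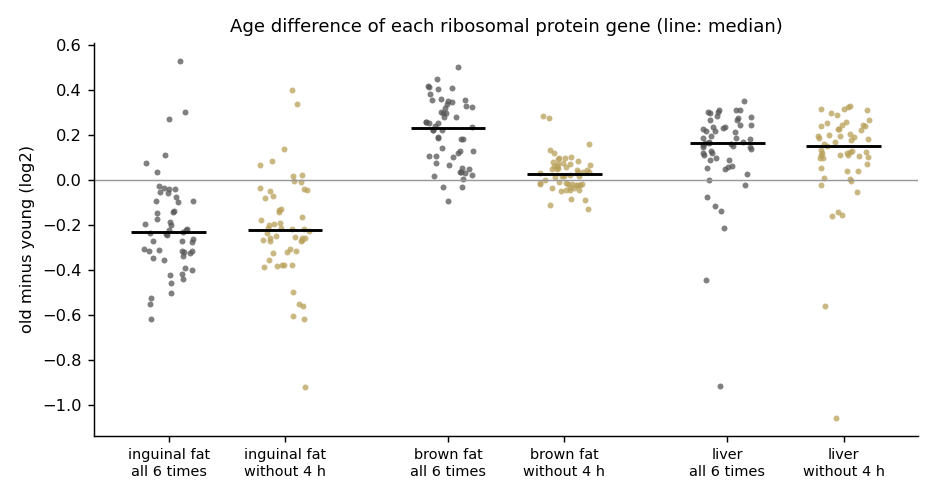
Old minus young (log2, mean of the harvest times) for each ribosomal protein gene in 3 tissues, over all 6 times (grey) and without the 4 h pair (tan), with lines at the medians. Inguinal medians lie below 0 and liver medians above it in both, and the brown fat median falls from 0.23 to 0.03.

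On the young brown fat array at 4 h, 33 of 52 members (63.5%) were more than 1 below the median of the other 5 young brown fat arrays, where 6.11% of 10598 genes were. The median member was 1.40 lower and the median gene 0.08 higher. Rps26, a small-subunit protein at the mRNA exit channel, read 9.90 there and from 11.74 to 12.72 on the other young arrays, 2.36 lower. Rpl34 was 2.12 lower, Rpl36a 2.03 lower and Rps15 1.98 lower. Some members did not follow: Rpl3 (0.05), Rpl22 (0.05), Rps15a (0.15), Rpl23 (0.23) and Rpl7l1 (0.26) were level or slightly higher, and Rps2 was 0.25 lower. These are brightest-probe values. A second bright Rpl23 probe, whose value on this array is not given here, had a brown fat age difference of 0.33 ± 0.18 (SE). The brightest had 0.11 ± 0.12. Rps15a is dim, with an average of 6.50 in brown fat. Mitochondrial ribosomal proteins were 0.50 lower at the median, while the other terminal oligopyrimidine transcripts were 0.14 higher and initiation factors 0.20 higher. The ribosomal proteins outside the symbol rule were 0.89 lower at the median, 2 of 4 by more than 1, and elongation factors 0.34 lower. Muscle (13.37), T and NK cell (5.58) and B cell (4.77) means of that array lay within the range of the other young brown fat arrays, and its macrophage mean (7.08) was the lowest of them, next to 7.10 at 12 h. Its erythroid marker mean (8.40) was also the lowest, where the others ran from 8.87 to 9.47, and the part of these cells in the drop was not tested.

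**Figure D5:**
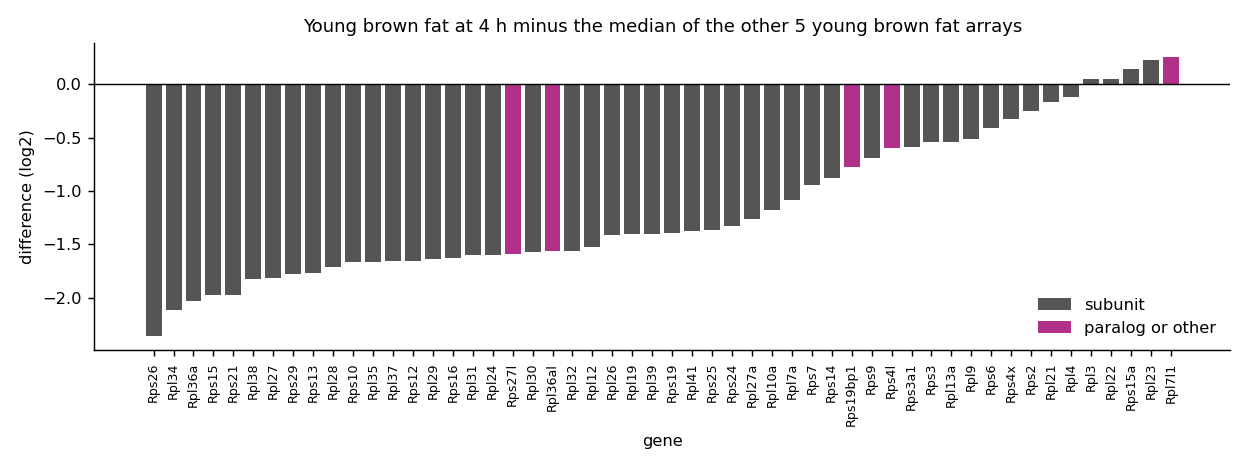
For each of 52 ribosomal protein genes, the value on the young brown fat array at 4 h minus the median of the other 5 young brown fat arrays (log2), sorted (grey subunits, magenta paralogs or others). The drop is graded, from -2.36 for Rps26 to values just above 0 for 5 genes.

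The age difference itself differed between liver and inguinal fat for 6 of 55 members (limma on matched differences with harvest time as a factor), all more positive in liver, where 4.7% of all genes were called in that direction and 6.09% in either. These were Rpl13a (0.86 ± 0.17, SE, adjusted p = 0.024), Rps7 (0.65 ± 0.13, adjusted p = 0.0245), Rpl7a (0.74 ± 0.17), Rpl12 (0.59 ± 0.14), Rpl39 (0.57 ± 0.13) and Rps3 (0.77 ± 0.19, adjusted p = 0.0475). Over all members the median was 0.38, with 51 of 55 positive, against 0.00 for all genes. Rpl13a, for example, fell short of the threshold in each tissue alone, at -0.55 in inguinal fat and 0.31 in liver. The count moved between 0 and 15 over the processing choices and was 0 to 2 when 1 harvest time was left out. Between brown and inguinal fat 0 members were called (0.0234% of all genes), and between liver and brown fat 0 (0.342%); 15 and 1 had an unadjusted p under 0.05 (14.9% and 11.9% of all genes), against 29 between liver and inguinal fat (22.7%).

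No member had a daily course that passed the threshold. The 24 h rhythm test (limma, moderated F over cosine and sine) called 0 of 54 members in inguinal fat (0.0571% of all genes), 0 of 54 in brown fat (0.222%) and 0 of 55 in liver (2.07%). At an unadjusted p under 0.05 it gave 0, 0 and 6 members, against 5.8%, 10.8% and 16.9% of all genes. On the same arrays it called 3, 6 and 10 of 12 core clock genes. The median member amplitude was 0.09 in inguinal fat and 0.09 in liver (all genes 0.12 and 0.14). In brown fat it was 0.23 (all genes 0.15), in data that hold the low 4 h array. Fitted peaks lay from 4 to 12 h for 37 of 54 members in inguinal fat (68.5%, all genes 34.3%). In liver 31 of 55 did (56.4%, all genes 34.7%), and in brown fat 5 of 54 (9.26%, all genes 33.4%). Peaks were fitted whether or not a rhythm was called, and members share arrays, so these shares are descriptions. In liver the 6 members were Rpl3l, Rps12, Rps10, Rps24, Rps15 and Rpl35, with fitted peaks from 7.66 to 9.27 h. Rps12, a small-subunit protein, averaged 13.83, 14.10, 14.22, 14.06, 13.87 and 13.81 from 0 to 20 h, an amplitude of 0.21 (limma adjusted p = 0.162). Rpl3l had the largest amplitude, 1.83 (limma adjusted p = 0.103), and its 4 high liver arrays are those with high muscle markers named above. The limma test for any difference between harvest times called 0 members in inguinal fat, brown fat and liver (0%, 0.0381% and 0.362% of all genes), with 1, 0 and 2 members at an unadjusted p under 0.05 (7.21%, 7.26% and 11.9% of all genes). The limma test for a rhythm that differs with age called 0 members and 0 genes in each tissue, with 1, 0 and 1 members at an unadjusted p under 0.05 (4.53%, 4.64% and 7.86% of all genes).

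Within a tissue and age, most members kept close to their common level. The SD of a member's departure from the member median of its array was 0.17 at the median of 52 members and 0.37 over 8474 other genes; without the young brown fat array at 4 h it was 0.14 and 0.28. The SD of a gene's own values, with nothing taken off, was 0.28 at the median of members and 0.23 over the other genes. Without that array it was 0.16 and 0.22. The members' departure of 0.14 was then little below their own 0.16, and members varied less than other genes by themselves. Members make up the median they are set against, so the departure is a description. Rpl12 (0.09), Rps19 (0.09) and Rps16 (0.10) departed least. Rps15a (0.39), Rpl7l1 (0.36), Rpl7a (0.34), Rps4l (0.34) and Rpl23 (0.32, by its brightest probe only) departed most. Without the young brown fat array at 4 h the order at that end changed: Rpl7a (0.34), Rps4l (0.32), Rps25 (0.30), Rps15a (0.29) and Rpl24 (0.29) departed most, and Rpl7l1 (0.24) and Rpl23 (0.18) less. The non-members with the least departure were Pfdn5 (0.10), Snhg12 (0.12), Rplp1 (0.12), Supt4b (0.13) and Supt4a (0.13), of which Rplp1 is a ribosomal stalk protein outside the symbol rule. Without that array the 5 were Pfdn5 (0.10), Supt4b (0.10), Nsa2 (0.11), Rnf6 (0.11) and Bola2 (0.11).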

How the data were processed

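Intensity values were deposited by the authors as linear, background-subtracted values (28.7 to 29.1% per array below 0) that are quantile-normalized over all 36 arrays, both read from the values; the arrays (MouseWG-6 v2) were exported with BeadStudio, per the submitters' processing notes. From these, log2(max(value, 0) + 16) was computed, each gene read by its brightest probe over all arrays, and a gene tested where it exceeded 8.80 (the 0.95 quantile of noise with SD 5.35, from values below 0) on at least 6 of 12 arrays of a tissue. The number of arrays limits the precision. limma 3.58.1 in R 4.3.3 fitted all genes: age with harvest time as a factor, a 24 h cosine and sine, and tissues by matched differences. The threshold was a Benjamini-Hochberg adjusted p of 0.05. The code was tested on simulated data. Named members are those that pass a test, lie at the extremes by age, tissue, brightness or departure, or are paralogs. Members, lists, offset and filter were chosen with earlier results of these data known, and start-site strings after several were searched. Young and old arrays are paired by harvest time in the labels, and the age fits keep that block. In all, 144 columns of a scanner table were not used, because their names do not tie them to single samples.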

Additional observations from a re-analysis of the deposited data

Results flagged for a closer look

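Within groups of 6 arrays, 39 series (the member median and 38 named members) were searched in each of 6 groups for an array far from the others, by the gap to its neighbour over the group's range. This gave 43 flags in 234 searches (18.4%). Chance gives about 1 in 20 for a series picked without regard to its values. The named members were picked partly as extremes in these same arrays, so that rate does not apply to them. Members also share arrays, so flags are not independent. Young brown fat at 4 h held 23 of them. There the member median was 11.12. The large-subunit members read 11.68 (Rpl10a), 10.69 (Rpl12), 10.69 (Rpl27), 11.17 (Rpl31), 9.67 (Rpl34), 11.51 (Rpl35), 9.53 (Rpl36a), 12.2 (Rpl38), 11.54 (Rpl39) and 13.37 (Rpl41). The small-subunit members read 12.28 (Rps12), 9.62 (Rps15), 10.59 (Rps16), 12.02 (Rps19), 9.90 (Rps26), 12.64 (Rps29), 8.68 (Rps3a1) and 11.79 (Rps7). The paralogs read 4.07 (Rpl22l1), 11.09 (Rpl36al), 11.49 (Rps27l) and 8.87 (Rps4l). All of these lay below the other 5 young brown fat arrays.

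On young inguinal fat at 8 h, Rpl36a (13.01), Rps12 (15.19) and Rps26 (14.05) stood above the other young inguinal arrays, and Rps19bp1 (6.41) and Rps4l (7.76) below them. In brown fat, Rpl3 was low on the young array at 0 h (12.86), and on old arrays Rpl35 stood apart at 8 h (13.36), Rpl4 at 0 h (8.95) and Rpl41 at 12 h (14.42). In young liver at 16 h, Rpl38 (14.2), Rps19 (13.15), Rps29 (14.32) and Rps9 (13.04) stood apart, as did Rpl39 at 12 h (12.78) and Rps27l at 20 h (13.52). In old liver, Rpl36a (12.36), Rpl7l1 (9.63) and Rps2 (15.08) stood apart at 8 h, Rpl24 at 0 h (11.73) and Rps3 at 20 h (12.32).

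The age difference was more positive in liver than in inguinal fat by the test of the difference (limma adjusted p under the threshold) for 6 members. These were Rpl13a (0.86), Rps3 (0.77), Rpl7a (0.74), Rps7 (0.65), Rpl12 (0.59) and Rpl39 (0.57). The calls depend on the processing.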

How the results depend on the processing

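Of 342 values for counts and age medians under alternatives, 323 stayed within a set tolerance and 19 moved. For a count the tolerance was a fixed ratio, and many counts were 0 under both settings. For a median it was the SD of the per-time medians, which is wide in brown fat. The fall of the brown fat median from 0.23 to 0.03 without 4 h therefore lay within it, so the 323 do not all have the same size. The calls for an age difference that differs between liver and inguinal fat were 6 as reported, 0 with an offset of 1, 15 with an offset of 64, 2 without a filter, 15 for genes above background on all arrays, 10 with the mean of all probes, 3 with arrays centred on the brightest 10%, and 0 to 2 with a harvest time left out. Members called for age in inguinal fat were 2 with an offset of 64, 1 with a floor of 16 and 0 to 1 with a harvest time left out. Members called for age in liver were 4 with an offset of 64 and 1 with the floor. Without the replicate block (harvest time left out of the model, arrays paired by time in the labels), 2 members were called in inguinal fat and 1 in liver; the block changed no count in brown fat. The planned fit without the block was not run for the rhythm that differs with age, which has no block. The median age difference with a harvest time left out ran from -0.26 to -0.19 in inguinal fat, 0.14 to 0.22 in liver and 0.03 to 0.34 in brown fat, lowest without 4 h. Some age differences that were not called changed sign. The age difference of Rpl4 in brown fat was -0.0164 with median centring; over left-out harvest times it ran from -0.0385 to 0.0785, that of Rpl3l from -0.919 to 1.54 in inguinal fat and from -0.214 to 0.0815 in brown fat, and that of Rps4l from -0.13 to 0.0497 in brown fat. Members called between liver and brown fat ran from 22 to 32 with a time left out, and their median from 0.13 (without 4 h) to 0.25. Tissue medians (alternatives chosen after seeing the data) ran over the other settings from -0.82 to -0.57 in brown against inguinal fat, -0.63 to -0.39 in liver against inguinal fat and 0.16 to 0.47 in liver against brown fat. The cause of these shifts was not tested. The p-values cover the spread between arrays only, and 6 members with dim probes were not tested.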
